A study of Drosophila melanogaster with 2 samples.

Results

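The Enhancer of split complex of *Drosophila melanogaster* is a cluster of small genes on chromosome arm 3R, and 9 of its genes were followed here through lists of chromatin regions recovered with a GFP-tagged *her* protein. They were 7 genes for basic helix-loop-helix (bHLH) proteins, *E(spl)mdelta-HLH*, *E(spl)mgamma-HLH*, *E(spl)mbeta-HLH*, *E(spl)m3-HLH*, *E(spl)m5-HLH*, *E(spl)m7-HLH* and *E(spl)m8-HLH*, and 2 genes for Bearded family (BFM) proteins, *E(spl)malpha-BFM* and *E(spl)m4-BFM*. The genes were chosen by name, not by a measured value, though with earlier results of these data known, and all 9 symbols matched 1 gene each among 13945 protein-coding genes on the main chromosome arms. A region counted for a gene when its summit lay in the gene body or within 1 kb of a transcription start site (TSS) of the gene. The same region could count for several genes.

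The data came from 2 biological replicates of whole embryos of both sexes, pooled, aged 0 to 24 hours. Both came from the *her*-GFP strain, a stable transgenic line in which GFP is fused to the C-terminal end of *her*, and chromatin was precipitated with an antibody against GFP. The gene *her*, short for hermaphrodite, acts in sex determination and its product has zinc fingers. There was 1 group, both replicates shared a control per the deposited notes, and no untagged embryos were analysed here, so no comparison between conditions could be made and no test was run. Which promoter drives the fusion, and in which cells, the labels do not say, and a region of a whole embryo cannot be assigned to a cell type.

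In Notch signalling, the ligands Delta and Serrate release the intracellular part of the receptor Notch, which enters the nucleus and, with the DNA-binding protein Su(H) and the coactivator Mastermind, activates genes of the Enhancer of split complex. The bHLH proteins of the complex are repressors that recruit the corepressor Groucho and hold down proneural genes in cells that receive the signal. The Bearded family proteins bind the ubiquitin ligase Neuralized and limit its action on Delta. In the fly embryo the complex is best known from the neuroectoderm, where it restricts how many cells become neuroblasts.

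Of the 9 genes, 3 had a summit that passed the threshold of reproducibility between replicates (the irreproducible discovery rate, IDR): *E(spl)m3-HLH*, *E(spl)m7-HLH* and *E(spl)mbeta-HLH*. Such a summit was found for 25.2% of all protein-coding genes and 16.6% of those up to 3 kb long. All 3 pooled summits lay upstream of the start site. None lay in a gene body, where 12.1% of all genes had one. For *E(spl)mbeta-HLH* the side is not settled, as the summit in replicate 1 was 11 bp past the TSS. The sequence around each of the 3 summits is shown first, because these are the positions on which the members' strongest values rest. Sequences are from the RefSeq Release 6 genome (dm6), 5′ to 3′ along the strand named. Capitals mark TATAAA (the TATA box), CANNTG (the E-box, read by bHLH proteins) and GAGAG (the letters of the GAGA factor), each searched on both strands. The *E(spl)m3-HLH* window is chr3R:26021388-26021488 on the plus strand, and the *E(spl)m7-HLH* window is chr3R:26036676-26036776 on the plus strand, both centred on the summit. For *E(spl)mbeta-HLH*, whose summit was 14 bp upstream of the TSS, the 100 bases before the TSS are given, chr3R:26006024-26006123 on the minus strand. The window of the strongest member region below the threshold, that of *E(spl)mdelta-HLH*, is chr3R:25996659-25996759 on the plus strand. The window of the strongest summit between the members, which counted for none of them, is chr3R:26009021-26009121 on the plus strand.
E(spl)m3-HLH summit: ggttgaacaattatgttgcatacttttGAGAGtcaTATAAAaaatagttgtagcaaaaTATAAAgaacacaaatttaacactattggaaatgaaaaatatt
E(spl)m7-HLH summit: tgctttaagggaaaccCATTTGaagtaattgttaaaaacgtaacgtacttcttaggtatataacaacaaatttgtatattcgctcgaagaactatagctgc
E(spl)mbeta-HLH upstream: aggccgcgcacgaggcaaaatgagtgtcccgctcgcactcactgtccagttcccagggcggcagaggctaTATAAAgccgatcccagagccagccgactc
E(spl)mdelta-HLH strongest region: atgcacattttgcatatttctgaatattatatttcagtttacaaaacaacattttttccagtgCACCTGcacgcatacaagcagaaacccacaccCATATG
summit between E(spl)mbeta-HLH and E(spl)malpha-BFM: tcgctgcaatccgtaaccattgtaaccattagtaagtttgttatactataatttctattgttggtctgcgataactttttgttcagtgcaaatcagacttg

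The windows differed in base composition. The *E(spl)m3-HLH* window held 2 TATAAA matches and was poor in G and C, at 23.8%, and 0.891% of all thresholded summit windows of the same width were poorer. The summit window of *E(spl)mbeta-HLH* stood at the other end, with 56.4% G and C, above 94.2% of the thresholded windows. The *E(spl)m7-HLH* window had 32.7% and the window between the members 34.7%, both below the median of 41.6%. The *E(spl)mdelta-HLH* window, from below the threshold, had 35.6% and held 2 E-boxes. An E-box stood in 1 of the 3 thresholded member windows, that of *E(spl)m7-HLH*, and in 40.9% of all 3930 thresholded windows. TATAAA stood in 2 of the 3, those of *E(spl)m3-HLH* and *E(spl)mbeta-HLH*, and in 10.3% of all. GAGAG stood in 1 of the 3 and in 15.7% of all. A match of letters is a description and not a binding site.

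The other set shown is that of the promoters with letters of the Su(H) site, the route by which Notch reaches these genes. Among the 9 windows from 250 bases before to 50 bases after the TSS, 3 held at least 1 of 3 searched forms on either strand (GTGGGAA, the related letters GTGAGAA, or the further variant GTGTGAA), against 10.9% of all 13945 promoters. They were the promoters of *E(spl)m4-BFM*, *E(spl)m5-HLH* and *E(spl)m8-HLH*, and none of these 3 genes had a thresholded summit. Such a summit was found for 25.2% of all genes and 16.6% of those up to 3 kb long. For these 3 genes, a count of none is near those shares, so no link between the Su(H) letters and the summits can be read from it. The 250 bases before each TSS are printed, with the Su(H) forms and TATAAA in capitals: chr3R:26024580-26024829 on the minus strand, chr3R:26029736-26029985 on the minus strand and chr3R:26039990-26040239 on the plus strand. In all of the promoters shown, the letters GTGGGAA lie on the opposite strand and therefore appear in these lines as TTCCCAC.
E(spl)m4-BFM promoter: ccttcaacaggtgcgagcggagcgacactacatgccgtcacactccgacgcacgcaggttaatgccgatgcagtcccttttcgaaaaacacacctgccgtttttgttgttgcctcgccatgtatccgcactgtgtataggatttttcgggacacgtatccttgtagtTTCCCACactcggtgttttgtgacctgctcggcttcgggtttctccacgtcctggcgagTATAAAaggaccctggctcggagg
E(spl)m5-HLH promoter: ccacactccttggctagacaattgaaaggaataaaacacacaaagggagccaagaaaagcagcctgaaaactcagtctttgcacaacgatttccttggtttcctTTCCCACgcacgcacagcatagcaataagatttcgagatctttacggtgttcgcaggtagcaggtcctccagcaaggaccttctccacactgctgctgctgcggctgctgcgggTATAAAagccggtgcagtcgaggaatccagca
E(spl)m8-HLH promoter: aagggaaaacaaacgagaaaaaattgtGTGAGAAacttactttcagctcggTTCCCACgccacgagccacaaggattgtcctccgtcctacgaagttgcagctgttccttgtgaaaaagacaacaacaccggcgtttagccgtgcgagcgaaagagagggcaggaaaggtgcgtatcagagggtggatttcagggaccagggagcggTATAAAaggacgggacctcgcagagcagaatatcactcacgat

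GTGGGAA began 83 bases before the TSS in *E(spl)m4-BFM*, 146 bases before it in *E(spl)m5-HLH* and 199 bases before it in *E(spl)m8-HLH*, and 3.59% of all promoters held it. The *E(spl)m8-HLH* promoter held GTGAGAA as well, 223 bases before the TSS, where 2.95% of all promoters held that form. TATAAA stood in 7 of the 9 promoters, between 24 and 43 bases before the TSS, and in 45.8% of all promoters, and the 2 without it were those of *E(spl)mdelta-HLH* and *E(spl)mgamma-HLH*. An E-box of any kind stood in 6 of 9 against 77.2% of all. The palindromic E-box CACGTG stood in 2 of 9, 181 bases before the TSS of *E(spl)mdelta-HLH* and 44 bases before that of *E(spl)m7-HLH*, where 4.20% of all promoters held it. The letters GCAGNTG, a proneural type of E-box, stood in 3 of 9 against 16.1%. CACNAG, the N-box, stood in 4 of 9 against 29.7%. All 4 were bHLH genes, as are 7 of the 9 members, so no difference between the families can be read from this count. GAGAG stood in 6 of 9, against 29.7%. CAGGTAG, the letters read by the early embryonic activator Zelda, stood in the promoter of *E(spl)m5-HLH* alone among the members, and in 1.64% of all. Of the other letters searched, 0 of the 9 windows held CACGCG, a site of bHLH repressors present in 6.12% of all promoters. The variant GTGTGAA of the Su(H) site was in 0 of 9 and in 4.68% of all. The core promoter elements TATCGATA, with 9.36% of all promoters, and, with 7.70% of them, GGTCACAC were in 0 of 9 too.

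Each region has a signal value set by the authors, on a scale the notes do not state, and a rank by that signal within its list, with rank 1 the strongest. The thresholded list held 3930 regions with signals of 90.8 to 9479 and a median of 138, and they were the 3930 strongest of the 30000 regions of the pooled list. The list of the pooled replicates had a median signal of 36.2, that of replicate 1 a median of 21.5 and that of replicate 2 a median of 19.6, each over 30000 regions. Since every relaxed list was 30000 regions long, presence in it is a weak criterion, and the share of all genes with a region is given beside each count. No read counts per library were used here, and the depth behind the values is unknown.

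A thresholded summit was found for 3 of the 9 members. The background share was 25.2% of all 13945 protein-coding genes and 16.6% of the 8625 no longer than 3 kb, the size class of every member. The count differed between the replicates. Among the 3930 strongest regions of replicate 1 alone, 1 member remained, *E(spl)m3-HLH*, against 24.8% of all genes. Among the 3930 strongest of replicate 2 alone there were 4, the same 3 and *E(spl)mdelta-HLH*, against 25.4% of all genes. When a summit was given only to the gene with the nearest TSS, 2 members were left, against 18.1% of all genes. The *E(spl)m3-HLH* summit dropped out, at 362 bp from the TSS of the non-coding gene *lncRNA:CR43644* and 385 bp from that of *E(spl)m3-HLH*. The matching summits of replicates 1 and 2 were nearest to *E(spl)m3-HLH*, at 369 and 335 bp. Replicate 2 also listed a summit nearest to the non-coding gene, at 204 bp, so the nearest gene is not settled.

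In the longer lists nearly every member had a region. The pooled list gave 9 of 9, against 64.1% of all genes and 54.3% of those up to 3 kb. Replicate 1 gave 8 of 9, against 65.3% and 54.7%, and the member without a region was *E(spl)mgamma-HLH*. Replicate 2 gave 9 of 9, against 66.0% and 55.5%. The members stand close together, but no region counted for more than 1 of them, so the 18 regions of the pooled list were 18 different ones.

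**Figure D1:**
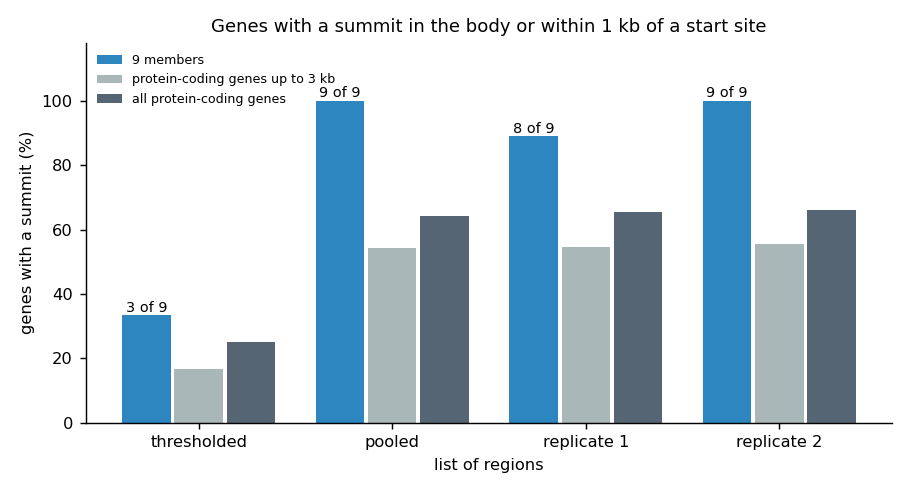
Bars give the share of genes, in percent, with a summit in the gene body or within 1 kb of a start site in each of the 4 lists, for the 9 members, for protein-coding genes up to 3 kb long and for all protein-coding genes. The members reached 3 of 9 in the thresholded list, beside 16.6% and 25.2%, and 8 or 9 of 9 in the relaxed lists.

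Their signals were not high for genes that had a region. The median of the members' strongest pooled signal was 46.2, with a median rank of 10583, against a signal of 71.9 and a rank of 5581 over the 8939 genes with a pooled region. Over genes up to 3 kb the medians were 59.3 and 7386. Within replicate 1 the members' median signal was 29.8, against 40.6 over all genes with a region and 33.9 over the short ones. For replicate 2 the medians were 28.2, 34.6 and 29.3. Among the 3512 genes with a thresholded summit, the 3 members had a median signal of 110 against 153, and placed between 2561 and 3345. In the relaxed lists a larger share of the members than of all genes had a region, and the median of their signals was lower.

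*E(spl)m3-HLH* (FBgn0002609, chr3R:26021823-26023127, plus strand, 1305 bp) had the strongest region of the members. Its thresholded summit at position 26021438 of 3R, in intergenic sequence 385 bp before the TSS, had a pooled signal of 119 at rank 2588. The matching region had a signal of 57.5 at rank 3285 in replicate 1 and of 67.7 at rank 1862 in replicate 2. It was the only member whose region stood among the 3930 strongest of both replicates. Replicate 2 listed another summit 543 bp before the TSS, at nearly the same signal of 66.8. Further regions lay in its coding exon, 617 bp past the TSS with a pooled signal of 41.2 and 819 bp past it with 23.8, and 1 lay 999 bp before the TSS with 24.2, just inside the window of 1 kb.

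*E(spl)m7-HLH* (FBgn0002633, chr3R:26037038-26038019, plus strand, 982 bp) came next. Its thresholded summit was 312 bp before the TSS and intergenic, with a pooled signal of 110 at rank 2891. Replicate 1 gave 47.2 at rank 4532 and replicate 2 gave 63.6 at rank 2088, with summits within 7 bp of the pooled position. A smaller pooled region 48 bp before the TSS, signal 37.6, had a partner in replicate 1 (35.8, rank 7035) and none within 200 bp in replicate 2. Replicate 1 listed yet another summit 534 bp before the TSS with a signal of 42.1. The upstream stretch of this gene was thus covered by 3 summits in replicate 1 and by 1 in replicate 2.

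*E(spl)mbeta-HLH* (FBgn0002733, chr3R:26005046-26006023, minus strand, 978 bp) had a single region in each list, at the start site itself. The thresholded summit was 14 bp before the TSS, with a pooled signal of 95.0 at rank 3657, near the end of the thresholded list. In replicate 1 the summit was 11 bp past the TSS, in the 5′ UTR, with a signal of 39.8 at rank 5963. In replicate 2 it was 12 bp before the TSS, with 54.0 at rank 2825.

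*E(spl)mdelta-HLH* (FBgn0002734, chr3R:25997621-25998633, plus strand, 1013 bp) was the strongest member below the threshold, with a pooled signal of 79.0 at rank 4821. That summit was 912 bp before its TSS, in an intron of the neighbouring gene *CG43116* and 287 bp from a TSS of that gene, so its membership rests on the width of the window. The replicates differed: the signal was 30.1 at rank 9145 in replicate 1 and 52.7 at rank 2947 in replicate 2. A second pooled region 19 bp before the TSS had a signal of 27.2, with a partner of 18.8 in replicate 1 and none in replicate 2. These 4 genes had the highest pooled signals of the 9, from 79.0 to 119, and a gap separated them from the next member at 46.2.

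All 4 ranked higher in replicate 2 than in replicate 1. The ranks were 1862 against 3285, 2088 against 4532, 2825 against 5963 and 2947 against 9145. The summit between *E(spl)mbeta-HLH* and *E(spl)malpha-BFM*, which counted for no member, went the other way, with rank 739 in replicate 1 and 2507 in replicate 2. With 1 library per replicate, whether this order belongs to the site or to the library was not tested.

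**Figure D2:**
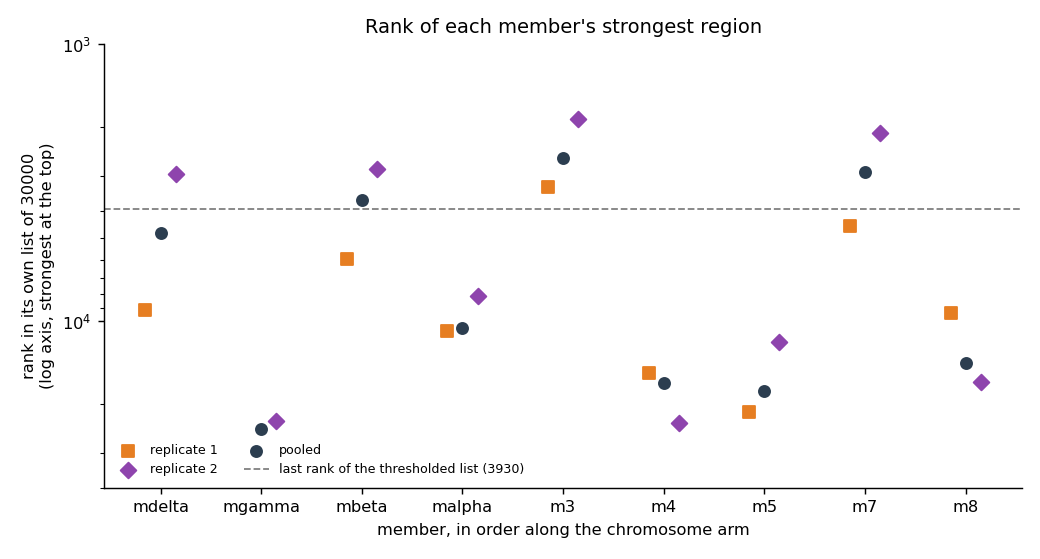
Each point is the rank of the strongest region of a member in its list of 30000 regions (log axis, strongest at the top), for the pooled list and for replicates 1 and 2, with members in order along the arm. A dashed line marks rank 3930, where the thresholded list ends; the pooled points of *E(spl)mbeta-HLH*, *E(spl)m3-HLH* and *E(spl)m7-HLH* lie above it, and *E(spl)mgamma-HLH* has no point for replicate 1.

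The remaining bHLH genes had low values. *E(spl)m8-HLH* (FBgn0000591, chr3R:26040240-26041008, plus strand, 769 bp), the gene altered in the classical Enhancer of split mutant, had a pooled signal of 37.6 at rank 14230, with the summit 8 bp before its TSS. The matching regions had 26.9 at rank 10801 in replicate 1 and 18.4 at rank 16670 in replicate 2. Replicate 1 had a slightly stronger region in the coding exon, with 29.6 at rank 9338. A pooled region 544 bp past the TSS, also coding, had 28.0.

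For *E(spl)m5-HLH* (FBgn0002631, chr3R:26028854-26029735, minus strand, 882 bp) a pair of near-equal pooled regions was listed. The summit 966 bp before the TSS had 31.8 at rank 17948, with 16.7 in replicate 1 and no partner in replicate 2. The summit 90 bp past the TSS, in the coding exon, had 31.1 at rank 18505, with 15.3 in replicate 1 and 22.4 at rank 11950 in replicate 2. Which of them was the stronger therefore differed between the replicates.

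*E(spl)mgamma-HLH* (FBgn0002735, chr3R:25999851-26000761, plus strand, 911 bp) had the lowest pooled signal of the 9. Its only region, 301 bp past the TSS in the coding exon, had a pooled signal of 25.1 at rank 24501 and 14.9 at rank 22919 in replicate 2. Replicate 1 listed none, and in replicate 2 *E(spl)m4-BFM* was slightly lower, at 14.7.

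The Bearded family members had no thresholded summit. *E(spl)malpha-BFM* (FBgn0002732, chr3R:26010893-26011568, plus strand, 676 bp) had its strongest pooled region past its 3′ end, 874 bp from the TSS in intergenic sequence, with 46.2 at rank 10583. The partners had 19.5 in replicate 1 and 28.2 at rank 8092 in replicate 2. A region 88 bp past the TSS, in the coding exon, had a pooled signal of 30.1. Its partner was the strongest region of the gene in replicate 1, with 26.7 at rank 10904 and its summit in the 5′ UTR, and replicate 2 had none there.

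*E(spl)m4-BFM* (FBgn0002629, chr3R:26023821-26024579, minus strand, 759 bp) had 33.5 at rank 16738, with the summit 92 bp past the TSS in the coding exon. Replicate 1 had the partner, with 21.1 at rank 15384, and replicate 2 had none. Replicate 2 instead listed a summit 752 bp before the TSS, with 14.7 at rank 23290, beside a pooled region 853 bp before the TSS with 29.8 that had no partner in replicate 1. The replicates thus shared no region of this gene.

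By pooled signal the order was *E(spl)m3-HLH*, *E(spl)m7-HLH*, *E(spl)mbeta-HLH*, *E(spl)mdelta-HLH*, *E(spl)malpha-BFM*, *E(spl)m8-HLH*, *E(spl)m4-BFM*, *E(spl)m5-HLH* and *E(spl)mgamma-HLH*. The first 3 kept that order in both replicates. *E(spl)mdelta-HLH* followed them in both as well, at 30.1 just above *E(spl)m8-HLH* at 29.6 in replicate 1. From *E(spl)malpha-BFM* on the order differed between the replicates, so neighbours there cannot be ranked: *E(spl)m8-HLH* was above *E(spl)malpha-BFM* in replicate 1, and below both *E(spl)malpha-BFM* and *E(spl)m5-HLH* in replicate 2.

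**Figure D3:**
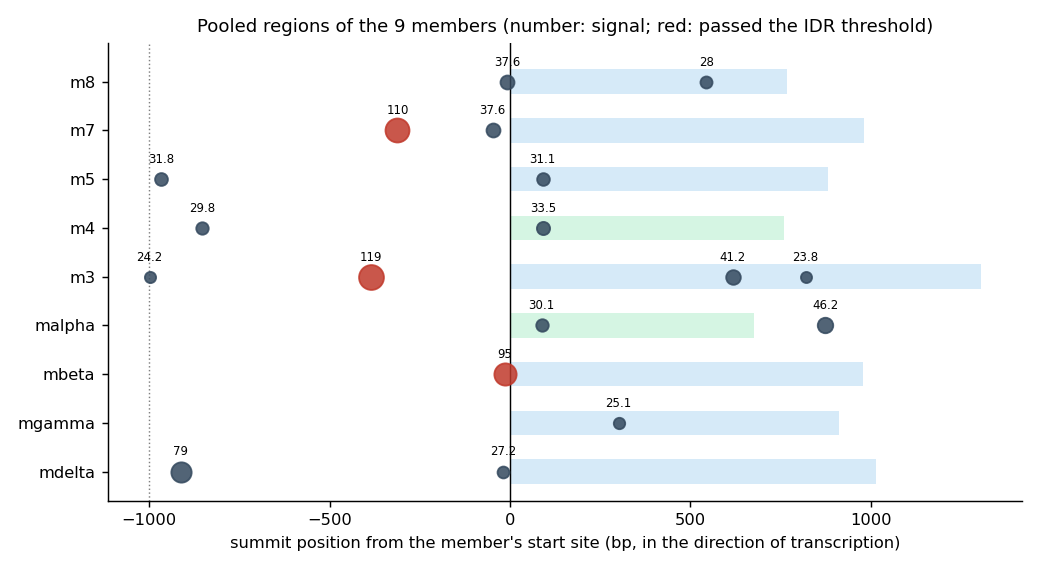
Points are the 18 pooled regions of the 9 members, placed by the distance of the summit from the start site of the member in bp along the direction of transcription, with area in proportion to the signal printed beside each; bars are gene bodies (blue bHLH, green BFM). The red points, with signals of 119, 110 and 95.0, passed the IDR threshold and all lie upstream of the start site, that of *E(spl)mbeta-HLH* by only 14 bp.

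Of the 18 pooled regions, 10 were upstream of the start site, 7 in the gene body and 1 past its end. Both replicates had a summit within 200 bp for 9 of them, replicate 1 alone for 7 and replicate 2 alone for 2. Counted from replicate 1, 8 of 18 member regions (44.4%) had a partner in replicate 2, against 56.7% of all its 30000 regions and 60.4% of those of genes up to 3 kb. Counted from replicate 2, 10 of 13 (76.9%) had a partner in replicate 1, against 56.2% of all and 58.9% of those of short genes. The shares stood on either side of the background, on 18 and 13 regions.

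Between the outer ends of *E(spl)mdelta-HLH* and *E(spl)m8-HLH*, a stretch of 43.4 kb, the pooled list had 33 summits, or 7.61 per 10 kb, against 2.15 on 3R and 2.24 over all main arms. Replicate 1 had 29 and replicate 2 had 27, or 6.68 and 6.22 per 10 kb, against 2.16 on 3R in each. The thresholded list had 4, or 0.922 per 10 kb against 0.285 on 3R. When the main arms were tiled into 3082 stretches of this length, 59 of them (1.91%) held as many pooled summits or more. The median stretch held 8 pooled summits and the highest 46. By the summits of replicate 1, 116 stretches (3.76%) held as many as the complex or more, and by those of replicate 2, 181 (5.87%). The stretches were not matched to the complex in number of genes or start sites, and whether the density follows that number was not tested. For the thresholded list 354 stretches (11.5%) held 4 or more, and the highest held 12. The complex was thus denser than 3R in every list. The shares of stretches are hard to compare between the lists, because the thresholded count was only 4, where the median stretch held 1.

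The strongest summit within those bounds belonged to no member. It lay in intergenic sequence at 26009071, 1822 bp before the TSS of *E(spl)malpha-BFM*, with a signal of 183 at rank 1184, in a narrow region of 136 bp where the median width was 404 bp. Replicate 1 gave 128 and replicate 2 gave 57.5. Just beyond *E(spl)m8-HLH*, a summit 1440 bp past its TSS and 56 bp from the TSS of *gro* had 149 at rank 1713, in a region of 149 bp. Both fell outside the window of 1 kb, and a window of 2 kb raised the count to 5 members, adding *E(spl)malpha-BFM* and *E(spl)m8-HLH*, where the share of all genes was 29.0%. Among pooled regions just outside the window, a summit 1049 bp before the TSS of *E(spl)mbeta-HLH* had 21.8 and one 1057 bp past that of *E(spl)mgamma-HLH* had 23.3.

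**Figure D4:**
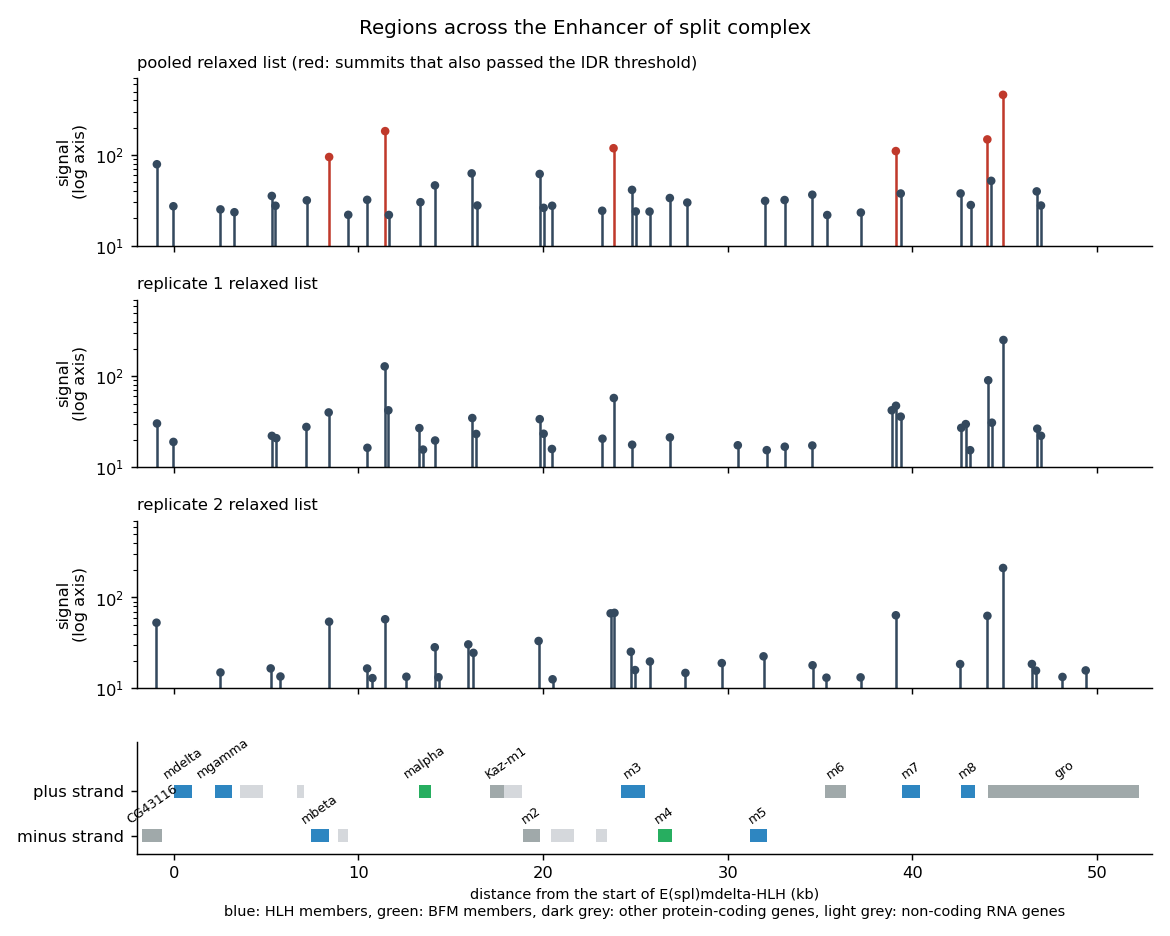
Vertical lines mark summits across the complex by signal (log axis) in the pooled list and in each replicate, against the distance in kb from the start of *E(spl)mdelta-HLH*, with the genes of each strand drawn below. Red lines are summits that passed the IDR threshold; the tallest, with a signal of 461, lies in *gro*, and the tallest between the members, with 183, lies between *E(spl)mbeta-HLH* and *E(spl)malpha-BFM*.

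The other genes of the complex were read the same way. *gro*, which encodes the corepressor Groucho that the bHLH members recruit, was the only one of the 4 with a thresholded summit and had 2 of them. The stronger, in an intron 111 bp before one of its start sites, had a signal of 461 at rank 209, with 251 at rank 221 in replicate 1 and 212 at rank 221 in replicate 2, so the replicates gave it the same rank. *E(spl)m1*, listed as *Kaz-m1* and encoding a protease inhibitor of the Kazal type, had 62.6 at rank 6811. The Bearded family gene *E(spl)m2-BFM* had 61.7 at rank 6980 and *E(spl)m6-BFM* had 36.4 at rank 14904, neither of them past the threshold.

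The 9 members encode short proteins of 138 to 224 residues in 2 families. Identity between the 21 pairs of bHLH proteins ranged from 36.4% to 61.8%, with a median of 43.4%, and the 2 Bearded family proteins shared 46.4%. Pairs across the families had a median of 23.0%. The thresholded summits fell in the first family, at 3 of 7 genes, and at 0 of the 2 genes of the second. The shares were 25.2% of all genes and 16.6% of genes up to 3 kb. With 2 genes, a count of 0 is near those shares, so no difference between the families can be read from it.

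Upstream and downstream genes of the pathway were taken from lists of 40 genes, chosen with earlier results of these data known. *Dl*, the gene for Delta, *Side*, *BobB* and *BobC* did not match exactly 1 gene in the annotation. They were left out, so nothing can be read here about their regions. Of the 36 genes that matched, 14 had a thresholded summit. Of 16 matched genes of the Notch pathway 11 had one, against the background of 25.2%. These genes ranged in length from 1049 bp for *aph-1* to 89273 bp for *kuz*. The count of 14 is over all 36 genes and includes *gro*, *da* and *emc*. With gene bodies left out and only 1 kb around each TSS used, it stayed at 14, and all 11 Notch pathway genes remained. The share of all genes in that setting was 23.3%. The genes were not matched in number of start sites, so this setting does not set gene length aside. Whether gene length or the number of start sites plays a part was not tested. The receptor *N* had a signal of 295 at rank 471, 27672 bp into the gene. *Su(H)*, the DNA-binding partner of Notch, had 102 at rank 3310, 11 bp before its TSS, a value within the range of the 3 members. The coactivator *mam* had 191 at rank 1079 and 9 thresholded regions, and *neur*, which encodes the ligase that Bearded family proteins bind, had 212 at rank 898 and 3 regions.

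Among the proteases that cut Notch, *kuz* had 132 at rank 2124, and 2 of the 4 listed subunits of gamma-secretase were past the threshold. These were *aph-1* with 242 at rank 703 and *nct*, listed as *Nct*, at rank 979. *mib1*, another ligase that acts on the ligands, had 94.3 at rank 3706. The Notch antagonist *numb* had 177 at rank 1263, and the regulators of receptor traffic *dx* and *Su(dx)* had 144 at rank 1815 and 113 at rank 2773. *Ser*, *H*, *fng*, *Psn* and *pen-2* had pooled regions only, with signals of 39.9 to 71.7.

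Genes related to the members in sequence were few, and their counts are set against the 25.2% of all genes and 16.6% of genes up to 3 kb with a thresholded summit, to which counts of this size can be near. Of 3 other matched genes of the Hairy and Enhancer of split family 0 had one, and *h*, listed as *hry*, and *dpn* had pooled signals of 75.5 and 52.4. Of 4 matched Bearded family genes outside the complex 0 had one. *Brd*, *Tom* and *Ocho* had pooled signals of 43.6, 42.2 and 44.0, and *BobA* had no pooled region. The Bearded family genes within the complex ranged from 33.5 for *E(spl)m4-BFM* to 61.7 for *E(spl)m2-BFM*. Of 9 proneural genes and bHLH partners 2 had one: *da*, the common partner of proneural proteins, with 134 at rank 2079, and *emc*, an inhibitor of bHLH proteins, with 245 at rank 678. The proneural genes *ac*, *sc*, *l(1)sc*, *ase*, *ato* and *cato* had no region in the pooled list, and *amos* had a pooled signal of 31.9. Of the 9 genes 3 thus had a pooled region, where 64.1% of all genes and 54.3% of genes up to 3 kb had one. Replicate 1 gave 4 of the 9 and replicate 2 gave 3.

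Values most like those of *E(spl)m3-HLH*, by the distance of the log2 signals in replicate 1, replicate 2 and the pooled list, were sought among 8196 genes with a region in all 3 lists. The nearest were *Treh*, with signals of 58.8, 69.9 and 120, and *CG13365* and *Vsp37A*, which share 1 region, with 56.2, 67.8 and 123. Their distances were 0.0575 and 0.0580 log2 units, over only 2 replicates and their pool.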

How the data were processed

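Chromatin immunoprecipitation and sequencing was done on 2 replicates, with sonicated fragments of 200 to 800 bp per the labels. The authors deposited, on dm6, a relaxed list of peaks and background for each replicate and for the pooled replicates, and the list past the IDR threshold, which holds pooled regions. A control entered every list, per the deposited notes, with aligner, caller and versions not given in the sources used here. Each signal is the value per region that the authors deposited, on an unstated scale, so signals of different lists were set side by side with their ranks. The deposited −log10 q-value was 4.13 for all 3930 thresholded and 6689 pooled regions, so regions were ranked by signal. Lists on dm3 were not used here.

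Genes and TSSs came from Ensembl release 115 and sequence from RefSeq Release 6, both dm6. Coordinates are 1-based. All members have 1 annotated TSS. Each summit was placed by script (Python 3.11.15, pandas 2.3.3), partners in the other replicate lay within 200 bp, and proteins were translated from the annotation and aligned with Biopython 1.88 (gap opening -10, extension -0.5). Placement was tested on simulated data. The members and gene lists were chosen with earlier results of these data known. The named genes were the 9 members, the other 4 genes of the complex, every listed gene with a thresholded summit, the gene nearest to a member's thresholded summit and the 3 genes most like *E(spl)m3-HLH*. Values of listed genes below the threshold were added after they were seen. Alternatives were other windows, the nearest TSS alone, shorter and longer lists and each replicate alone.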

Additional observations from a re-analysis of the deposited data

How the results depend on the processing

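Of the 9 members, 3 had a thresholded summit, and the count moved with the window and the list. It was 5 with 2 kb around the TSS, where 29.0% of all genes had a summit. It was 0 with the gene body only, against 12.1% of all genes. In the 1965 strongest thresholded regions it was 0, against 14.6%. With 9 genes, counts of 0 are not far from these low shares. Using 3930 regions of a single replicate gave 1 for replicate 1, against 24.8% of all genes, and 4 for replicate 2, against 25.4%. The other alternatives gave 2 to 4, against 18.1% to 39.7% of all genes. The count of pathway genes fell from 14 to 9 of 36 in the 1965 strongest regions, where the share of all genes fell from 25.2% to 14.6%. The median rank of the members' strongest region, 10583 in the pooled list, was 8092 to 9241.5 in single replicates and 16738 when only regions within 500 bp of the TSS were used. The count of members with a pooled region fell from 9 to 6 with the gene body only, where the share of all genes was 49.6%. It was 8 or 9 otherwise, against 55.8% to 69.1% of all genes. Shares matched between replicates, summits per 10 kb and the E-box count at summits moved by less than 1.5 times in every alternative but 1. Member regions of replicate 1 with a partner came to 66.7% within 500 bp, from 44.4% within 200 bp. Over all regions of replicate 1 the share rose as well, to 70.4% from 56.7%.

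No paired analysis was possible because both replicates belong to 1 group. With 2 replicates, no untagged sample analysed here, unknown depth and a signal of unstated scale, small differences between members cannot be resolved.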
